A study of Mus musculus with 12 samples.

Results

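The nuclear factor I (NFI) genes Nfia, Nfib, Nfic and Nfix are described here in the molar germs of Nfic-/- mice and of their Nfic+/- littermates. The members were taken by gene symbol, and all 4 were found among the 25899 genes of the deposited table. The tissue was the apical, root-forming part of the mandibular first molar on postnatal day 4, from C57BL/6 mice. The 6 Nfic-/- libraries are from homozygous mutants and the 6 Nfic+/- libraries from heterozygotes, so the control itself carries the mutant allele and no wild-type group was analysed here. The library numbers 5 to 10 occur once in each genotype and were read as 6 littermate pairs, since the series text speaks of 6 pairs, although no label says that equal numbers are littermates. The series title asks how Nfic acts on Hedgehog signalling in root formation.

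NFI proteins are transcription factors that bind DNA as dimers through a conserved amino-terminal domain and carry more variable carboxy-terminal parts that activate or repress transcription. The 4 genes are expressed in overlapping sets of tissues, and mice that lack one of them differ in the organs affected. Nfia is known for its role in brain development, Nfib for brain and lung, and Nfix for muscle and brain. Nfic is known for the formation of molar roots and of odontoblasts, the cells that make dentin.

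The coding sequences show how alike and how separable the members are. The windows shown are 90 coding bases from exon 2 of the longest coding transcript of each gene (GENCODE M21, GRCm38), which start with 17 bases that all 4 genes share. They lie in the amino-terminal part of the coding sequence, at coding positions 157 to 246 in Nfic, and capitals mark bases that differ from Nfic. The windows are at chr10:81420649-81420738 (minus strand) for Nfic, chr8:84772166-84772255 (minus strand) for Nfix, chr4:97783142-97783231 (plus strand) for Nfia and chr4:82498620-82498709 (minus strand) for Nfib.
Nfic: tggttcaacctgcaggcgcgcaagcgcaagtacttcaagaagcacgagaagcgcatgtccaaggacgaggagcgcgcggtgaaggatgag
Nfix: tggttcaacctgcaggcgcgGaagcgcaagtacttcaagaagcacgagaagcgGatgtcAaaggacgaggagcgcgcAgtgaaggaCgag
Nfia: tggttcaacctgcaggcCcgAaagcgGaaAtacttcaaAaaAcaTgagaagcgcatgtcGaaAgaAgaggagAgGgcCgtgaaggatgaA
Nfib: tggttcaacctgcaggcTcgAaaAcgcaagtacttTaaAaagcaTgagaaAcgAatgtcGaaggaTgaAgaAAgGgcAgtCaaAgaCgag

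Nfix differs from Nfic at 5 of the 90 bases, Nfia at 14 and Nfib at 18. The longest stretch that Nfic and Nfix share in these coding sequences is 32 bases, and no other pair shares more than 21. Over all annotated protein-coding transcripts, no stretch of 36 bases is shared by any 2 members, so a read of that length or longer that matches exactly belongs to 1 of them.

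Each library stood on 70.2 to 96.4 M reads, estimated from the values of genes at the floor of the table. The members' own reads, from their RPKM (a read density scaled to gene length and to the library's total) and annotated exon length, came to about 3677 to 15580 for Nfic, 3872 to 10897 for Nfix, 1440 to 3767 for Nfib and 449 to 1279 for Nfia. Counting error was thus at most 4.72% of a value (Nfia) and was small beside the spread between libraries, although such intervals cover counting error only. Dental markers were present in every library. The 9 intestinal markers summed to 82.9 to 101 RPKM in the libraries numbered 8 and 9 of both genotypes and to at most 0.115 RPKM in the other 8, so results are also given without numbers 8 and 9. Enamel transcripts varied widely in amount, with 7 enamel genes summing to 52825 to 140049 RPKM in Nfic-/- and 36034 to 142043 RPKM in Nfic+/- libraries, which bears on every other gene because RPKM is relative to the total.

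Nfic and Nfix were the abundant members, Nfib was low and Nfia was lower still. Over the 12 libraries Nfic averaged 14.1 RPKM, Nfix 12.3, Nfib 2.11 and Nfia 0.965, a scale that is per length and so comparable between genes. Nfix stood above Nfib, and Nfib above Nfia, in 12 of 12 libraries. Nfic stood above Nfix in 3 of 6 Nfic-/- libraries and in 6 of 6 Nfic+/- libraries, and the order was thus mixed in Nfic-/- molars. The order itself was not tested. Within a library, Nfic exceeded 83.7% to 93.9% of all genes in the table and Nfia 51.2% to 55.4%. Of the 4 members, 3 passed the filter of a mean of 1 RPKM, and Nfia did not.

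**Figure D1:**
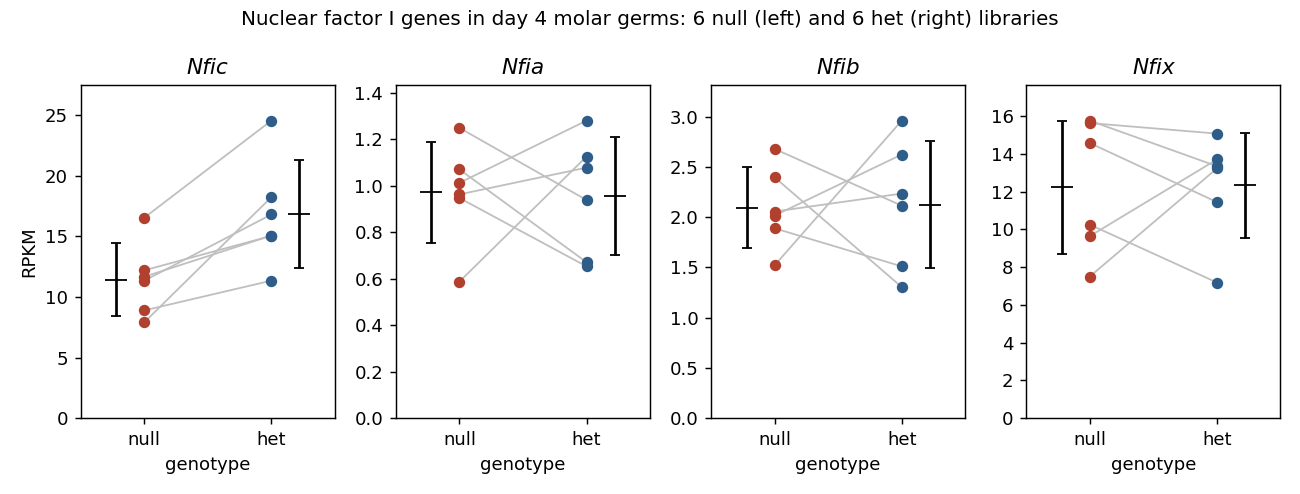
RPKM of Nfic, Nfia, Nfib and Nfix (1 panel each, own vertical axis from 0) in Nfic-/- libraries at the left and Nfic+/- libraries at the right; points are libraries, grey lines join equal library numbers, and black marks give the mean and SD (n = 6 each). For Nfic every line runs lower in Nfic-/- molars, with means of 11.4 and 16.8 RPKM, while the lines of the other 3 genes run both ways.

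Nfic transcript (chromosome 10, 81396186 to 81455635, minus strand, GRCm38) was lower in Nfic-/- molars but far from absent. It ran from 7.90 through a median of 11.5 to 16.5 RPKM in Nfic-/- libraries, and from 11.3 through 15.9 to 24.5 RPKM in Nfic+/- libraries. The groups overlapped, since 3 Nfic-/- libraries lay below the lowest Nfic+/- library and 3 did not. Within pairs the Nfic-/- value was 78.3%, 43.3%, 81.1%, 67.5%, 77.4% and 67.4% of the Nfic+/- value for numbers 5 to 10. All 6 pairs were thus lower, a pattern found for 2.68% of the genes tested. Pair 6 fell furthest and pairs 5, 7 and 9 least.

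On the log2(RPKM + 1) scale Nfic changed by -0.52 (SE 0.178 by limma, n = 6 each), with p = 0.0303 in the exact 2-sided permutation test over all assignments of 6 of the 12 libraries. In the same exact test 4.82% of all genes had a p under 0.05. Among 12094 genes tested together, 0% were called at an adjusted p of 0.05 in either direction (limma with Benjamini-Hochberg adjustment), and Nfic was not called either (adjusted p = 0.934). In limma Nfic ranked 117th by unadjusted p, with 0.967% of genes at its p or below. By limma 5.34% of genes had an unadjusted p below the 0.05 level, a share that varied when 1 library was left out (319 genes without Nfic+/- replicate 10 and 1249 without Nfic-/- replicate 10, against 646). Without numbers 8 and 9 the difference was -0.56, with p = 0.143 in the exact test. The exact p also rose above 0.05 without any of Nfic-/- replicates 5 and 6 and Nfic+/- replicates 6 and 10, and without pair 6, 7, 8 or 9.

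Where along the gene the reads fell was not analysed here. The antisense gene Gm16104 overlaps exons of Nfic. It had 2.55 ± 1.18 RPKM in Nfic-/- and 3.67 ± 0.977 RPKM in Nfic+/- molars (SD, n = 6 each) and was lower in 6 of 6 pairs (exact permutation p = 0.0779). Whether strand was used in counting is not given in the sources used here, so reads of this gene and of Nfic cannot be told apart in the overlap.

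Nfix (chromosome 8, 84699876 to 84800344, minus strand), the other abundant member, showed no shift between genotypes larger than its spread. It ran from 7.51 through 12.4 to 15.8 RPKM in Nfic-/- libraries and from 7.19 through 13.3 to 15.1 RPKM in Nfic+/- libraries, ranges that overlap almost throughout. The difference was -0.03 (SE 0.195; exact permutation p = 0.911; limma adjusted p = 1.0), with 2 of 6 pairs lower. Within pairs the Nfic-/- value ranged from 56.7% of the Nfic+/- value in pair 6 to 143% in pair 5. The protein-coding genes Lyl1 and G430095P16Rik overlap exons of Nfix on the opposite strand, at 0.522 to 2.61 and 2.91 to 5.97 RPKM over all libraries.

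Nfib and Nfia, the low members, likewise showed no shift beyond their spread. Nfib (chromosome 4, 82290173 to 82705750, minus strand) ran from 1.52 through 2.04 to 2.68 RPKM in Nfic-/- libraries and from 1.30 through 2.17 to 2.96 RPKM in Nfic+/- libraries. The genotypes differed by 0.00071 log2 in Nfib (SE 0.139; exact permutation p = 0.996; limma adjusted p = 1.0). Nfia (chromosome 4, 97772734 to 98118874, plus strand) ran from 0.587 through 0.987 to 1.25 RPKM in Nfic-/- libraries and from 0.653 through 1.01 to 1.28 RPKM in Nfic+/- libraries. Its difference was 0.01 (SE 0.104 without the filter; exact permutation p = 0.916; limma adjusted p = 0.995 without the filter). Each was lower in 3 of 6 pairs and higher in the other 3. The SE-based 95% interval of the difference ran from -0.32 to 0.32 for Nfib, from -0.22 to 0.24 for Nfia and from -0.51 to 0.46 for Nfix, so changes inside these bounds are not excluded. At the low level of Nfia and Nfib the added 1 RPKM shrinks a fold change, and their bounds cannot be set beside that of Nfix.

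Summed over the family, the transcripts outside Nfic differed by less than their spread. Nfia, Nfib and Nfix together made 15.3 ± 3.93 RPKM in Nfic-/- and 15.4 ± 3.51 RPKM in Nfic+/- libraries (SD, n = 6 each). The sum of all 4 was 26.7 ± 6.50 RPKM in Nfic-/- and 32.3 ± 7.59 RPKM in Nfic+/- libraries and was lower in 4 of 6 pairs. These sums are given as descriptions, with no test.

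The share of Nfic within the family separated the libraries that its level alone did not. Nfic made up 37.2% to 47.2% of the summed family RPKM in Nfic-/- libraries (median 43.1%) and 47.9% to 56.7% in Nfic+/- libraries (median 51.9%). Every Nfic-/- library thus lay below every Nfic+/- library, by a margin of less than 1 point between Nfic-/- replicate 8 (47.2%) and Nfic+/- replicate 9 (47.9%). Set over the summed RPKM of the other 3 members in the same way, 0.364% of the genes tested separated the libraries in this direction, and by RPKM alone 0.0331% did. The share of Nfic was lower in 6 of 6 pairs, as was that ratio for 5.2% of the genes tested. The share of Nfix stood higher, at 45.4% ± 3.81 in Nfic-/- and 38.3% ± 3.08 in Nfic+/- libraries (SD, n = 6 each), with overlapping groups. Shares add up to the whole, so a lower share of Nfic makes the joint share of the other members higher. Nfix itself averaged 12.2 RPKM in Nfic-/- and 12.3 RPKM in Nfic+/- libraries.

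**Figure D2:**
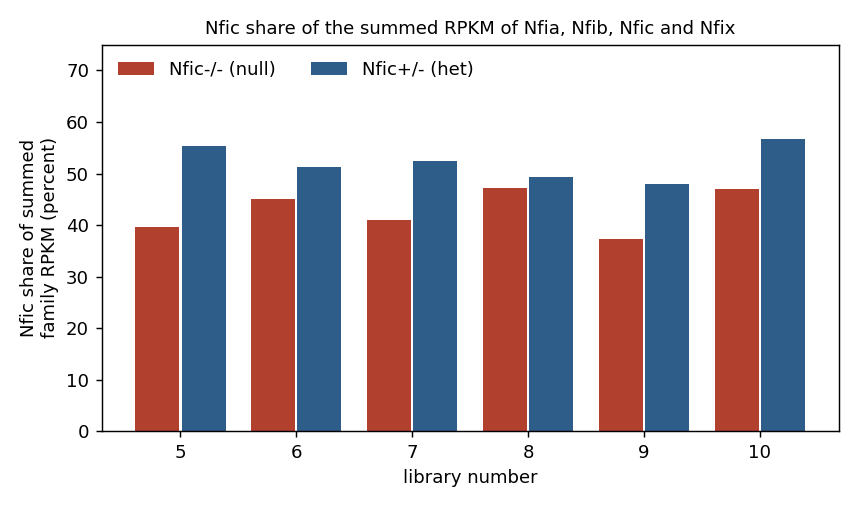
Nfic as a percentage of the summed RPKM of Nfia, Nfib, Nfic and Nfix (vertical axis from 0) by library number, with the Nfic-/- bar left of the Nfic+/- bar. The Nfic-/- bars reach 37.2% to 47.2% and the Nfic+/- bars 47.9% to 56.7%, and pair 8 shows the least difference.

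The change of Nfic differed from that of each other member, tested on the log2(RPKM + 1) of Nfic minus that of the other gene within each library. Against Nfix this value was -0.08 ± 0.234 in Nfic-/- and 0.42 ± 0.190 in Nfic+/- libraries (SD, n = 6 each), a difference of -0.50 (SE 0.123; exact 2-sided permutation p = 0.00433; 6 of 6 pairs lower). In RPKM, Nfic was 0.740 to 1.18 times Nfix in Nfic-/- libraries and 1.13 to 1.63 times Nfix in Nfic+/- libraries, and the ranges overlapped. Against Nfia the difference was -0.53 (SE 0.157; exact permutation p = 0.00866) and against Nfib it was -0.52 (SE 0.165; exact permutation p = 0.0152), each with 6 of 6 pairs lower. For pair counts against a single member no share of all genes is given here. Over the summed RPKM of Nfia, Nfib and Nfix, 5.2% of genes were lower in 6 of 6 pairs. Together with the tests of the 4 members, those of the differences against Nfix, Nfia and Nfib made 7 single tests, and their p-values are not adjusted. When every gene tested was set against Nfix in this way, 4.64% were lower with an exact p under 0.05 and 0.62% were lower with a p as small as that of Nfic. Set against Nfia these shares were 3.92% and 0.405%, and against Nfib 2.87% and 0.471%.

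Leaving out numbers 8 and 9 left the Nfic minus Nfix difference at -0.59, with an exact permutation p = 0.0286, the smallest that 4 against 4 libraries can give. The differences against Nfia and Nfib were then -0.57 (exact permutation p = 0.0571) and -0.53 (exact permutation p = 0.114). The sample indices in the column names repeat between numbers 5 to 7 and 8 to 10, and no label says whether these were separate runs. The Nfic minus Nfix difference was -0.58 in numbers 5 to 7 (exact permutation p = 0.1) and -0.41 in numbers 8 to 10 (p = 0.2 in the same test), where 3 against 3 cannot go below 0.1, and that of Nfic alone was -0.57 and -0.47.

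**Figure D3:**
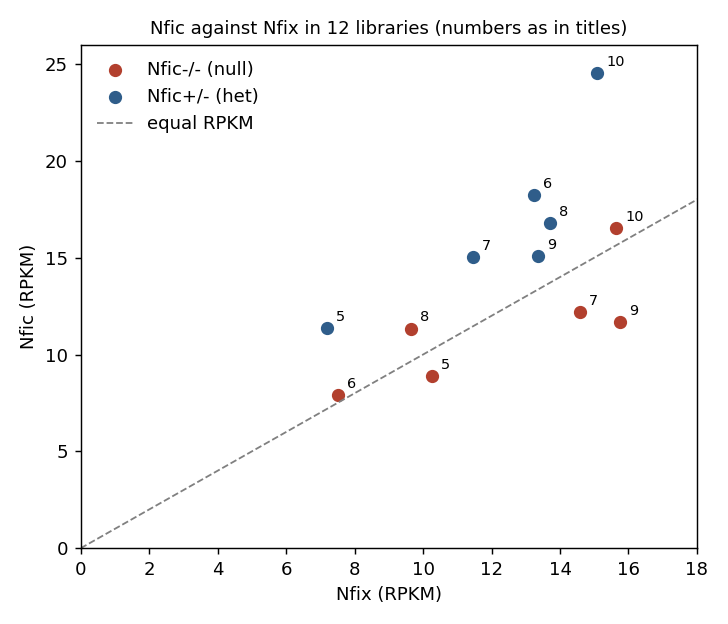
Nfic against Nfix (both in RPKM, linear axes) in the 12 libraries, labelled by library number; the dashed line marks equal RPKM. All 6 Nfic+/- libraries lie above the line, at 1.13 to 1.63 times Nfix, whereas 3 of the 6 Nfic-/- libraries lie above it and 3 below, at 0.740 to 1.18 times Nfix.

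Tissue marker lists also stood at different mean levels in Nfic-/- and Nfic+/- molars, but no marker was called (smallest limma adjusted p = 0.934). Counts of genes below are descriptions, with no share of all genes beside them. The median difference of all genes tested was -0.0028. Of 12 dental mesenchyme markers 10 stood lower in Nfic-/- molars, and their mean level was 3.70 ± 0.416 in Nfic-/- and 4.01 ± 0.334 in Nfic+/- libraries on the log2(RPKM + 1) scale (SD, n = 6 each; difference -0.31, exact permutation p = 0.19; 4 of 6 pairs lower). Their summed level ran from 192 to 407 RPKM in Nfic-/- and from 233 to 456 RPKM in Nfic+/- libraries, and none of the 12 was under 1 RPKM in every library. The 9 dental epithelium markers all stood higher (mean level difference 0.28), with sums of 1790 to 2621 RPKM in Nfic-/- and 1476 to 2221 RPKM in Nfic+/- libraries, and only the stem cell factor gene Sox2 was under 1 RPKM in every library. Standing lower were 9 of 9 odontoblast and dentin genes (mean level difference -0.44), 8 of 9 follicle and ligament genes (-0.61), 6 of 6 endothelial genes (-0.42), 7 of 7 measured macrophage genes (-0.42), 4 of 5 osteoclast genes (-0.17) and 4 of 5 Schwann cell genes (-0.06). By pair, the mean level was lower in 6 of 6 for odontoblast, 5 for follicle and ligament and 4 for endothelial genes. For macrophage, osteoclast and Schwann cell genes it was lower in only 3 of 6 pairs each, and for epithelium in 1. Standing higher were 7 of 7 skeletal muscle genes (0.21), 7 of 9 intestinal genes (0.04) and 5 of 7 enamel genes (0.0041), and of 4 measured red blood cell genes 2 stood lower and 2 higher (-0.03). The muscle sum reached 39.0 RPKM in 1 Nfic-/- library numbered 8 or 9. It was at most 8.20 RPKM in Nfic+/- libraries and 5.50 RPKM in libraries with other numbers. Median Acta1 was 1.64 RPKM in Nfic-/- and 1.47 RPKM in Nfic+/- libraries, and median Mylpf 1.62 and 1.60 RPKM. The mean intestinal level was lower in 4 of 6 pairs. In whole tissue, fewer cells of a type and less RNA per cell cannot be told apart.

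Set against the mesenchyme marker level of the same library, Nfic was still lower in Nfic-/- molars, while the other members stood higher. This comparison was chosen after the values had been seen. The marker level itself differed by -0.31 (exact permutation p = 0.19), and subtracting it moves the difference of every gene up by that amount. Before subtraction the median difference of all genes tested was -0.0028, and the share of genes that pass after it is not given here. Nfic minus the marker level was -0.10 ± 0.206 in Nfic-/- and 0.11 ± 0.110 in Nfic+/- libraries (SD, n = 6 each), a difference of -0.21 (exact permutation p = 0.0476; 5 of 6 pairs lower). Nfix minus the marker level was -0.02 ± 0.193 in Nfic-/- and -0.30 ± 0.176 in Nfic+/- libraries, a difference of 0.28 (exact permutation p = 0.0281; 5 of 6 pairs higher). For Nfia and Nfib the difference was 0.32 and 0.31, with p = 0.0606 and 0.0628 in the same exact test. The sign of Nfix thus turned from its own difference of -0.03, and the part of tissue makeup in these values was not tested.

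Among libraries of the same genotype the members rose and fell together in RPKM, but largely with the transcriptome as a whole. Over the 12 libraries, with each genotype's mean removed, Nfic and Nfix gave Pearson's r = 0.83 (permutation p = 0.00197, adjusted p = 0.00689 over 14 relations) and Spearman's rho = 0.82 (p = 0.00231 by permutation, adjusted p = 0.0108). Nfia and Nfib gave r = 0.84 (permutation p = 0.00274, adjusted p = 0.00767) and rho = 0.74 (permutation p = 0.0141, adjusted p = 0.0283), and Nfia and Nfix gave r = 0.78 and rho = 0.70 (permutation p = 0.00145 and 0.0115, adjusted p = 0.00677 and 0.0283). Without the 2 libraries farthest from the median of the first-named gene these 3 values were 0.78, 0.72 and 0.47. Nfib and Nfix gave r = 0.67 (permutation p = 0.0141, adjusted p = 0.0247) but rho = 0.50 (permutation p = 0.0937, adjusted p = 0.131), and r no longer passed in 9 of 18 omissions of a library or pair. Nfic gave r = 0.62 with Nfia and 0.58 with Nfib (permutation p = 0.0426 and 0.0617, adjusted p = 0.0663 and 0.0863). The relations of Nfic with Nfix and of Nfia with Nfib and with Nfix no longer passed without pair 6, and that of Nfia with Nfib also failed without pair 9, although r stayed at 0.67 or above when any 1 library or pair was left out. Without numbers 8 and 9, Nfic with Nfix (r = 0.94) and Nfia with Nfix (0.83) still passed (adjusted permutation p = 0.0282 and 0.0471). Nfia with Nfib (0.88) and Nfib with Nfix (0.65) did not (adjusted permutation p = 0.0982 and 0.137). Libraries of 1 pair are not independent, and none of these p-values takes account of it.

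These values need the background beside them. The median r of all genes tested was 0.64 with Nfic, 0.57 with Nfia, 0.67 with Nfib and 0.67 with Nfix. When each library was shifted to the same median over genes, the r of Nfic and Nfix was 0.61, that of Nfia and Nfib 0.40, that of Nfia and Nfix 0.09, that of Nfib and Nfix 0.04 and that of Nfic with Nfia or Nfib -0.15, and the median r over genes lay between -0.18 and -0.02. By Pearson's r, 0 of the 14 relations passed at an adjusted p of 0.05 under that scaling, where the smallest adjusted permutation p was 0.0677. With a total without the 10 most abundant genes, no pair of members passed either. There Nfic with Nfix gave r = 0.71, Nfia with Nfib 0.71 and Nfia with Nfix 0.62 (adjusted permutation p = 0.073, 0.0705 and 0.0946).

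Nfic and Nfix followed the dental mesenchyme marker level more closely than the low members did, as a description. The r of all genes with that level is not given here, so these values have no background beside them. In RPKM as deposited r was 0.90 for Nfic (permutation p = 0.00068, adjusted p = 0.00476; rho 0.92, permutation p = 0.00013, adjusted p = 0.00182) and 0.88 for Nfix (permutation p = 0.00017, adjusted p = 0.00238; rho 0.83, permutation p = 0.00062, adjusted p = 0.00434). Nfia and Nfib gave 0.76 and 0.75 (permutation p = 0.00762 and 0.00473, adjusted p = 0.0152 and 0.011). Without Nfic-/- replicate 10, r was 0.87 for each of the 4 members. Without pair 10 it was 0.88 for Nfic and Nfia and 0.86 for Nfix and Nfib. Without the 2 libraries farthest in marker level, Nfic-/- replicates 6 and 10, r was 0.85 for Nfic and 0.82 for Nfix. It was then 0.78 for Nfia and 0.86 for Nfib, so Nfib stood above both abundant members. With equal library medians r was 0.75 for Nfic and 0.71 for Nfix, against -0.04 for Nfia and 0.18 for Nfib. Without pair 6 the relation with the marker level no longer passed for Nfix (r = 0.84), Nfia (0.58) and Nfib (0.65). That of Nfia also failed without Nfic-/- replicate 6, Nfic+/- replicate 5, pair 5 or pair 9, and that of Nfib without Nfic-/- replicate 6 or Nfic+/- replicate 5. Without numbers 8 and 9 the relation passed for Nfic and Nfix (adjusted permutation p = 0.0282 each). It failed there for Nfia and Nfib (adjusted permutation p = 0.0911 and 0.0982). The total without the 10 most abundant genes likewise kept Nfic and Nfix (0.0353 each by that test) and lost Nfia (0.134) and Nfib (0.15). With the dental epithelium level r lay between -0.16 (Nfic) and 0.54 (Nfib) in RPKM as deposited, with adjusted p from 0.13 to 0.733 by permutation, and with equal medians it was -0.73 for Nfic.

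**Figure D4:**
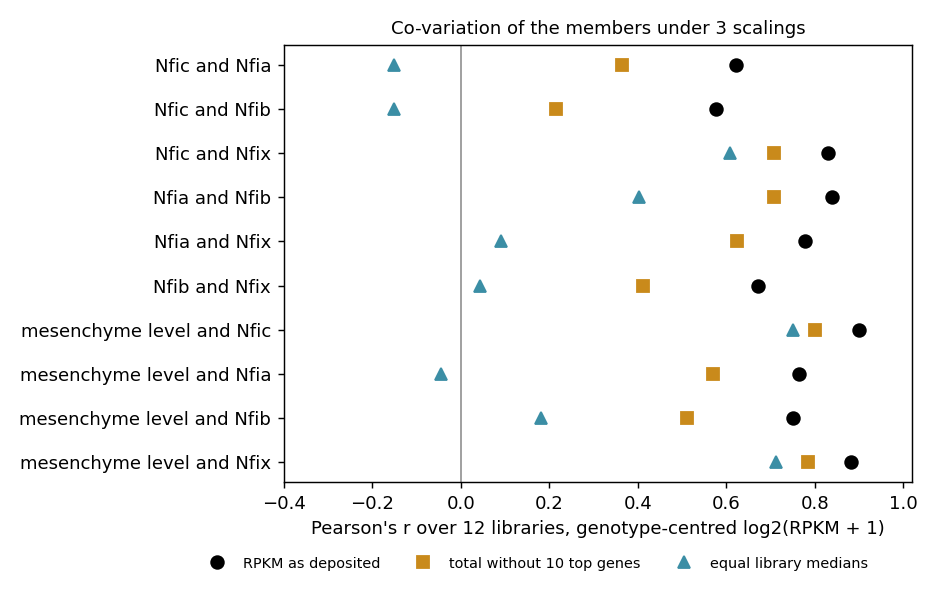
Pearson's r over 12 libraries of genotype-centred log2(RPKM + 1), for pairs of members and for members against the mean level of 12 dental mesenchyme markers; black circles use RPKM as deposited, squares a total without the 10 most abundant genes, and triangles equal library medians. All circles lie above 0.5, whereas the triangles stay high only for Nfic with Nfix (0.61) and for the marker level with Nfic (0.75) and Nfix (0.71).

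The 5 genes whose genotype-centred pattern over the 12 libraries was most like that of Nfic all gave a Pearson's r above 0.97, beside a median of 0.64 for all genes. They were Pax9 (r = 0.99), a transcription factor gene needed for tooth development and itself among the 12 mesenchyme markers, the forkhead gene Foxd2 (0.98), the matrix glycoprotein gene Emilin3 (0.98), Mab21l2 (0.98), known from eye development, and the tyrosine kinase gene Fyn (0.98). With equal library medians these 5 gave r from 0.93 to 0.97. Nfix was most like Gstm1 (0.98), a glutathione transferase gene, the exchange factor gene Dock6 (0.97), Notch3 (0.97), a receptor gene known from vessel-wall cells, Rab32 (0.97) and Stom (0.96), with r from 0.88 to 0.94 at equal medians. Nfix ranked 1538th in likeness to Nfic and Nfib 6248th.

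Nfia was most like the Mediator gene Med13l (0.96), the coactivator gene Ncoa1 (0.95), Zfpm1 (0.95), whose product is a GATA cofactor, Stat3 (0.94) and Rai1 (0.94). Nfib was most like Gramd4 (0.97), the teneurin gene Odz3 (0.97), the splicing factor gene Sf3a2 (0.97), Mybbp1a (0.97) and the translation initiation gene Eif3c (0.97). With equal library medians Zfpm1 gave 0.64 with Nfia and Sf3a2 gave 0.53 with Nfib, while the other 8 of these genes gave 0.70 to 0.92.

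Genes linked to Nfic in tooth and bone cells were all measured, and none was called. Of 16 listed genes 16 were tested and 0 were called in either direction, beside 0% of all genes. By sign, 9 stood lower and 7 higher in Nfic-/- molars, with a median difference of -0.06 log2 against -0.0028 for all genes tested. By unadjusted p, 3 of 16 were lower (Phex, Dspp and Hhip), beside 2.72% of all genes. The list was chosen with earlier results of these data known, so this count is a description and no independent support.

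The dentin genes Phex, Dspp, Dmp1 and Sp7 of this list, which are also among the 9 odontoblast markers, stood below 0 by -0.34 to -0.63. Phex, whose product acts in phosphate balance and mineralization, ran from 15.7 through 23.8 to 38.2 RPKM in Nfic-/- and from 28.7 through 38.8 to 52.8 RPKM in Nfic+/- libraries, and the groups overlapped (difference -0.63, SE 0.218, limma adjusted p = 0.934). Dspp, which encodes dentin sialophosphoprotein, differed by -0.49 (SE 0.202) and Dmp1, which encodes a dentin matrix protein, by -0.53 (SE 0.382), and the limma adjusted p was 0.934 and 1.0. Sp7, which encodes the osteoblast factor osterix, differed by -0.34 (SE 0.166) and was lower in 5 of 6 pairs. Klf4, a transcription factor gene placed between Nfic and Dmp1 in odontoblast studies, had 50.2 ± 8.37 RPKM in Nfic-/- and 49.4 ± 12.4 RPKM in Nfic+/- molars (SD, n = 6 each), a difference of 0.04 (SE 0.149). Hhip, the secreted Hedgehog antagonist, ran from 0.623 through 2.92 to 4.14 RPKM in Nfic-/- and from 2.21 through 4.77 to 9.44 RPKM in Nfic+/- libraries (difference -0.66, SE 0.291, limma adjusted p = 0.934).

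Cell junction, cell cycle and TGF-beta genes of the list lay on both sides of 0. Cdh1, which encodes E-cadherin and is also 1 of the 9 dental epithelium markers, differed by 0.32 (SE 0.160), and the tight junction genes Ocln and Tjp1 by 0.18 (SE 0.141) and -0.01 (SE 0.121). The cell cycle inhibitor gene Cdkn1a differed by 0.15 (SE 0.098) and the cyclin gene Ccnd1 by -0.23 (SE 0.252). The ligand gene Tgfb1 differed by -0.13 (SE 0.077), its receptor gene Tgfbr1 by 0.12 (SE 0.085) and the signal transducers Smad2, Smad3 and Smad4 by 0.04, 0.06 and -0.11. None of these passed the threshold, with limma adjusted p from 0.945 to 1.0.

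Genes linked to Nfia, Nfib or Nfix in other tissues were not called either. Of 7 listed genes 5 passed the level filter, and the astrocyte gene Gfap (difference -0.09) and Mmd2 (-0.02) did not. Of the 5, 0 were called, 4 stood lower and 1 higher, and the median difference was -0.05 log2. The Wnt inhibitor gene Apcdd1 had 57.2 ± 10.4 RPKM in Nfic-/- and 45.9 ± 4.83 RPKM in Nfic+/- molars (SD, n = 6 each) and stood above in all 6 pairs. The zinc finger gene Zcchc24 had 6.83 ± 3.01 RPKM in Nfic-/- and 10.3 ± 2.42 RPKM in Nfic+/- molars and stood below in all 6. Both had a limma adjusted p of 0.934. Of all genes tested 2.68% were lower in 6 of 6 pairs, and the share higher in 6 of 6 is not given here. The Notch effector gene Hes1, the chromatin enzyme gene Ezh2 and the HMG-box gene Bbx differed by -0.09 (SE 0.098), -0.05 (SE 0.172) and -0.04 (SE 0.102).

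**Figure D5:**
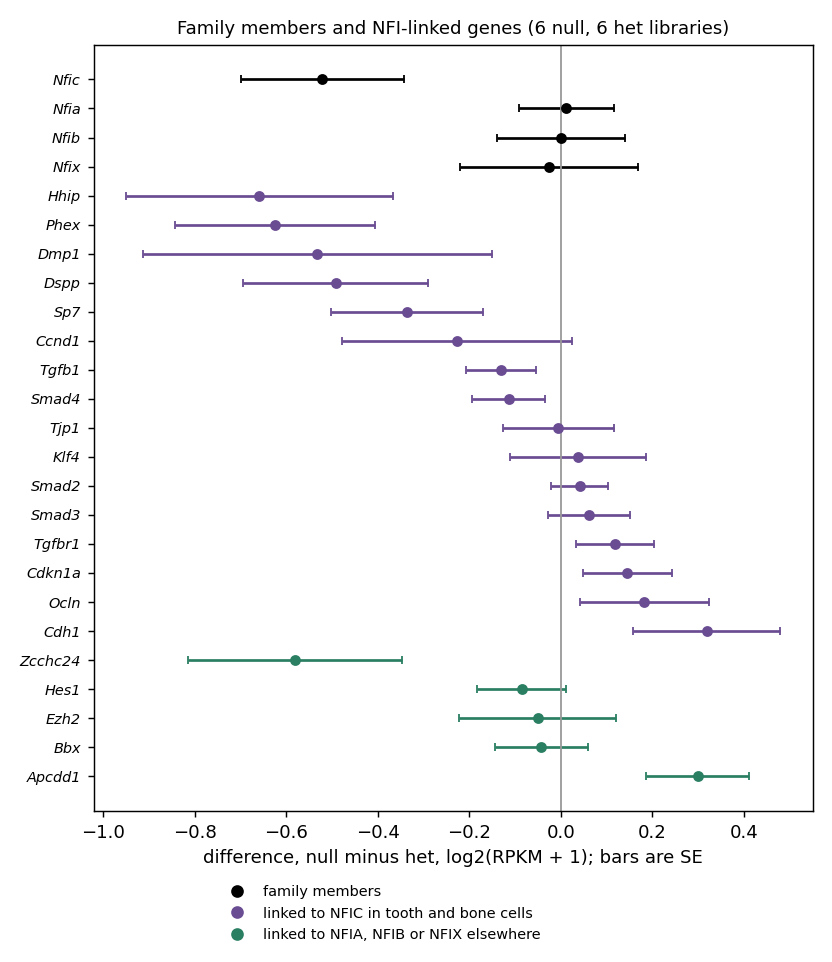
Differences in log2(RPKM + 1), Nfic-/- minus Nfic+/- (points, with SE by limma, 6 libraries each), for the 4 family members (black, Nfia from the fit without a level filter) and the 21 tested genes linked to them (purple and green). Nfic lies at -0.52 while the other members lie within 0.03 of 0, and the linked genes run from Hhip at -0.66 to Cdh1 at 0.32.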

How the data were processed

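RNA sequencing libraries of 6 Nfic-/- and 6 Nfic+/- molar germs were compared. Reads were aligned with TopHat2 to mm10, per the submitters' processing notes; which tool counted them, on which annotation and with or without strand, is not given in the sources used here. Values as deposited run from -11.1 to 16.7 and were read as log2 of RPKM, by the authors; with base 2 they account for 0.773 to 0.835 of the reads, and with base e for an impossible multiple. Genes without reads sit at the equivalent of 0.9 reads. The depth was taken from genes at this floor in all libraries. It was then checked on 13924 low values (below 20 reads) of 2853 genes whose lowest value sat at the floor by annotated length. Of these values, 96.9% came out as whole reads within 0.02 reads. Genes whose annotated length did not give the floor were left out beforehand, so the share covers only genes with a fitting length.

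Values were turned back to RPKM and tested as log2(RPKM + 1) with limma 3.58.1 in R 4.3.3 (intensity trend, genotype as the only term, 12094 genes averaging at least 1 RPKM, Benjamini-Hochberg adjustment over all of them), and single values by exact permutation. The limma step was also run on simulated data in which each gene varied independently. In the real libraries genes varied together, so that run cannot show how the fit performs on them. Coordinates are from GENCODE M21 (GRCm38), matched for 24987 genes. Correlations used 100000 permutations within genotype. The members and gene lists were chosen with earlier results of these data known. Genes were named by rule: the members, the 4 genes with the smallest p in each linked list plus Hhip, Dspp, Klf4 and Sp7, and the 5 genes most like each member, leaving out predicted genes; the other listed genes were added after their values were seen.

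Equal library numbers were read as pairs from the series text and the titles, although no label states it. Deviations of same-numbered libraries correlated at 0.00502 (number 6) to 0.802 (number 10), and their sex-linked genes matched in 6 of 6. No label says outright that each library is 1 animal, so p-values measure the spread between these samples. Python 3.11.15, numpy 2.4.6, pandas 2.3.3, scipy 1.17.1 and matplotlib 3.10.9 were used. Alternatives tried were blocking by pair, another pseudocount, filter or scaling, other variance settings, a rank test, and leaving libraries out.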

Additional observations from a re-analysis of the deposited data

How the results depend on the processing

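The difference of Nfic stayed below 0 and that of Nfic minus each other member stayed below 0 under every alternative run. Some alternatives could not move these values. Equal medians shift both genes of a library alike and so leave Nfic minus another member unchanged. The sign-flip and rank tests change only the p-value. With the replicate number as a block (exact sign-flip over 6 pairs) the p-values of Nfic and of its 3 differences from other members were each 0.0312, the smallest 6 pairs can give, and no call changed; limma with the block gave Nfic an adjusted p of 0.272. The count of genes called was 0 under all limma settings, with 646 at an unadjusted p under 0.05 in the test as reported, 981 under the block, 1245 with equal medians and 1065 with a total without the 10 most abundant genes. That count was 363, 345 and 1249 without Nfic-/- replicate 5, 6 or 10, 1075, 404 and 319 without Nfic+/- replicate 5, 7 or 10, 396 without pair 7, 271 in numbers 8 to 10 and 324 without numbers 8 and 9. Leaving out 1 library gave -0.63 to -0.41 for Nfic, -0.034 to 0.074 for Nfia, -0.082 to 0.074 for Nfib and -0.16 to 0.093 for Nfix. Leaving out a pair, Nfic missed the threshold without pair 6 (-0.40), 7 (-0.57), 8 (-0.52) and 9 (-0.56), and signs near 0 turned for Nfia without pair 5 (-0.032), 7 (-0.047) and 9 (-0.028), for Nfib without pair 5 (-0.11), 7 (-0.040) and 9 (-0.047) and for Nfix without pair 6 (0.12) and 8 (0.063). Nfic minus Nfia, Nfib and Nfix kept an exact p of 0.0476 or below when any 1 library or pair was left out. With fewer libraries calls were lost, where 3 against 3 cannot pass by construction. In numbers 5 to 7 the differences were -0.57 for Nfic and -0.61, -0.61 and -0.58 for Nfic minus Nfia, Nfib and Nfix, in numbers 8 to 10 -0.47, -0.46, -0.44 and -0.41, and without numbers 8 and 9 -0.56 for Nfic and -0.57 and -0.53 for Nfic minus Nfia and Nfib. Signs also turned for Nfix with equal medians (0.0032), in numbers 5 to 7 (0.013), without numbers 8 and 9 (0.022) and against mesenchyme markers (0.28, chosen after seeing the data), for Nfib with a total without the 10 most abundant genes (-0.0055), in numbers 8 to 10 (-0.035) and without numbers 8 and 9 (-0.038), and for Nfia in numbers 8 to 10 (-0.016). With either scaling the exact p of Nfic was 0.00433. Correlations turned negative with equal medians for Nfic with Nfia (-0.15) and Nfib (-0.15), for Nfia with the mesenchyme level (-0.045) and for Nfix with the epithelium level (-0.45, and -0.33 without the 10 most abundant genes in the total). The epithelium level gave -0.37 to 0.18 with Nfic and -0.054 to 0.36 with Nfix when 1 library was left out, 0.53 with Nfic without pair 10 and -0.0054 with Nfix without pair 5. The cause of these changes was not tested.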
